A study of Mus musculus with 30 samples.

Results

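Cannabidiol (CBD) binds the CB1 receptor poorly, and several other proteins have been proposed as its targets. The genes of 10 such targets were followed here in mHypoA-2/12, an immortalized line from the adult mouse hypothalamus. They are the ion channel gene *Trpv2*, the nucleoside transporter gene *Slc29a1*, the mitochondrial channel genes *Vdac1*, *Vdac2* and *Vdac3*, the adenosine receptor genes *Adora1* and *Adora2b*, and the nuclear receptor genes *Pparg*, *Ppard* and *Ppara*. They were chosen by their symbols out of the 56941 Ensembl genes in the count tables, and each of the 10 symbols matched 1 gene.

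All cells came from this line, which was immortalized with a retrovirus carrying SV40 large T antigen and stands for 1 clone of cells rather than for the hypothalamus. At 6 h and at 24 h, a vehicle group (DMSO in DMEM with GlutaMAX) and 4 groups given CBD (3, 1.5, 0.75 or 0.325 µM) were collected, which gives 10 groups of 3 libraries and 30 libraries in all. No source says whether the 3 libraries of a group came from separate cultures, so the p-values given here measure the spread between these libraries. Each library held between 1839621 and 4420675 reads on genes, from 3′ mRNA-Seq in which a transcript gives reads at its 3′ end only. Among the neuronal markers examined, *Tubb3* was at 49.1 CPM, the reads of a gene scaled to the size of its library, *Eno2* at 37.2 CPM and *Map2* at 23.2 CPM, while *Snap25* had 4 reads over all 30 libraries. The summed level of 10 mesenchymal markers, among them *Vim* and *Col1a1*, ranged from 11186 to 14583 CPM per library, against 114 to 170 CPM for the 10 neuronal markers and 0 to 3.78 CPM for the 6 endothelial ones. The 10 glial and microglial markers summed to 18.5 to 58.9 CPM, with *Cx3cr1* the highest at 14.5 CPM and no read of *Aqp4* and *Olig2*. The third vehicle library of 6 h stood apart from the other 2 in depth, with 3574833 reads against 1839621 and 1919498. Many, but not all, of the values of 6 h that move without it are given both ways.

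TRPV2 is a calcium-permeable cation channel of the plasma membrane. The transporter ENT1, the product of *Slc29a1*, carries adenosine across the membrane, and the receptors of *Adora1* and *Adora2b* respond to adenosine outside the cell, the former through Gi and the latter mainly through Gs proteins. The voltage-dependent anion channels VDAC1, VDAC2 and VDAC3 are the main pores of the outer mitochondrial membrane, through which ATP, ADP and other metabolites pass. The peroxisome proliferator-activated receptors (PPAR) are nuclear receptors for fatty acids that bind DNA with RXR and act on genes of lipid metabolism.

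The regions before the transcription start are shown for a member with many reads, a member with few and a member near the detection limit, to set the sequence beside the level in this line. They are the 250 bases before the most upstream RefSeq start of the gene that had no exon of it in this window, on GRCm38.p6, all on the plus strand of chromosome 11, at chr11:52360601-52360850 for *Vdac1*, chr11:62248734-62248983 for *Adora2b* and chr11:62574236-62574485 for *Trpv2*. Capitals mark CG dinucleotides.
Vdac1: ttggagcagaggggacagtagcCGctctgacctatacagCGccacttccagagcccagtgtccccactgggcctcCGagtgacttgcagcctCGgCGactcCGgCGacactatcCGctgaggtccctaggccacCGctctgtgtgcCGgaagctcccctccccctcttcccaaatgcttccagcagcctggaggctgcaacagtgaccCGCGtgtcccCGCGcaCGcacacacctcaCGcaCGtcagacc
Adora2b: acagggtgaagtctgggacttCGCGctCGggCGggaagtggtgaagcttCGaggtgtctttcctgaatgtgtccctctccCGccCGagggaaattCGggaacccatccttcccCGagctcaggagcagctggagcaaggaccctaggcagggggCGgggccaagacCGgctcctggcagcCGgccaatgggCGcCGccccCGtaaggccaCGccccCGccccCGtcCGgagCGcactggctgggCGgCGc
Trpv2: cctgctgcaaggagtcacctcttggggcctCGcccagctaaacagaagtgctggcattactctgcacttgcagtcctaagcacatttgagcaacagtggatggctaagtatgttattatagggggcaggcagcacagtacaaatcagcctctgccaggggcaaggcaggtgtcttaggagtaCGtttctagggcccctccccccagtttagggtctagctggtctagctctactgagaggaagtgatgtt
The *Vdac1* window held 17 CG dinucleotides, the *Adora2b* window 22 and the *Trpv2* window 2. The median was 6 over 32851 windows before RefSeq starts, which include windows that hold exons of their gene. In the windows shown, the number of CG dinucleotides did not order these genes by level, as *Adora2b* had the most of the 3. Another *Vdac1* window with no exon of the gene, at chr11:52361347-52361596, held 22. The RefSeq table held windows for 8 of the 10 genes.

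The VDAC genes and *Slc29a1* were the abundant members, *Ppard* was intermediate, *Adora2b* and *Pparg* were low, and *Trpv2*, *Adora1* and *Ppara* were at or near the limit of detection. Levels are CPM normalized by the TMM method of edgeR. As 3′ reads are counted once per transcript end, they were compared between genes without division by length. Over the 30 libraries *Vdac2* was at 252 ± 24.7 CPM (SD), *Vdac1* at 208 ± 24.8, *Slc29a1* at 145 ± 30.1 and *Vdac3* at 97.6 ± 12.7. *Ppard* was at 31.8 ± 6.11 CPM. *Adora2b* was at 5.50 ± 2.14 CPM and *Pparg* at 3.64 ± 2.26 CPM. *Trpv2* was at 1.18 ± 0.889 CPM, *Adora1* at 0.175 ± 0.400 CPM and *Ppara* at 0.0994 ± 0.216 CPM. Among the 27561 genes with a read, *Vdac2* ranked 659 by its mean level, *Slc29a1* ranked 1330, *Ppard* 5167 and *Trpv2* 13879.

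The order of the levels held in most libraries. *Vdac2* was above *Vdac1* in 27 of 30 libraries, *Vdac1* above *Slc29a1* in 29 and *Slc29a1* above *Vdac3* in 29, although the ranges of each of these pairs overlapped. *Vdac3* was above *Ppard* and *Ppard* above *Adora2b* in 30 of 30 libraries, with ranges that did not overlap. *Adora2b* was above *Pparg* in 23 libraries and below it in 7, which is within their spread. *Adora1* and *Ppara* had the same value, 0 reads, in 21 libraries, and their order cannot be told at this depth.

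*Adora1* had 14 reads over all libraries, spread over 7 libraries with at most 4 in any of them. Its pooled level was 0.166 CPM, with an exact Poisson 95% interval of 0.0908 to 0.279 CPM that covers counting error only. *Ppara* had 7 reads in 6 libraries, or 0.0831 CPM with an interval of 0.0334 to 0.171 CPM. *Trpv2* had 97 reads, with at least 1 in 27 libraries, or 1.15 CPM with an interval of 0.933 to 1.40 CPM. In the vehicle libraries *Adora1* had 0 reads at both times, which allows up to 0.409 CPM at 6 h and 0.296 CPM at 24 h, where 3 reads over the group are taken as the limit.

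**Figure D1:**
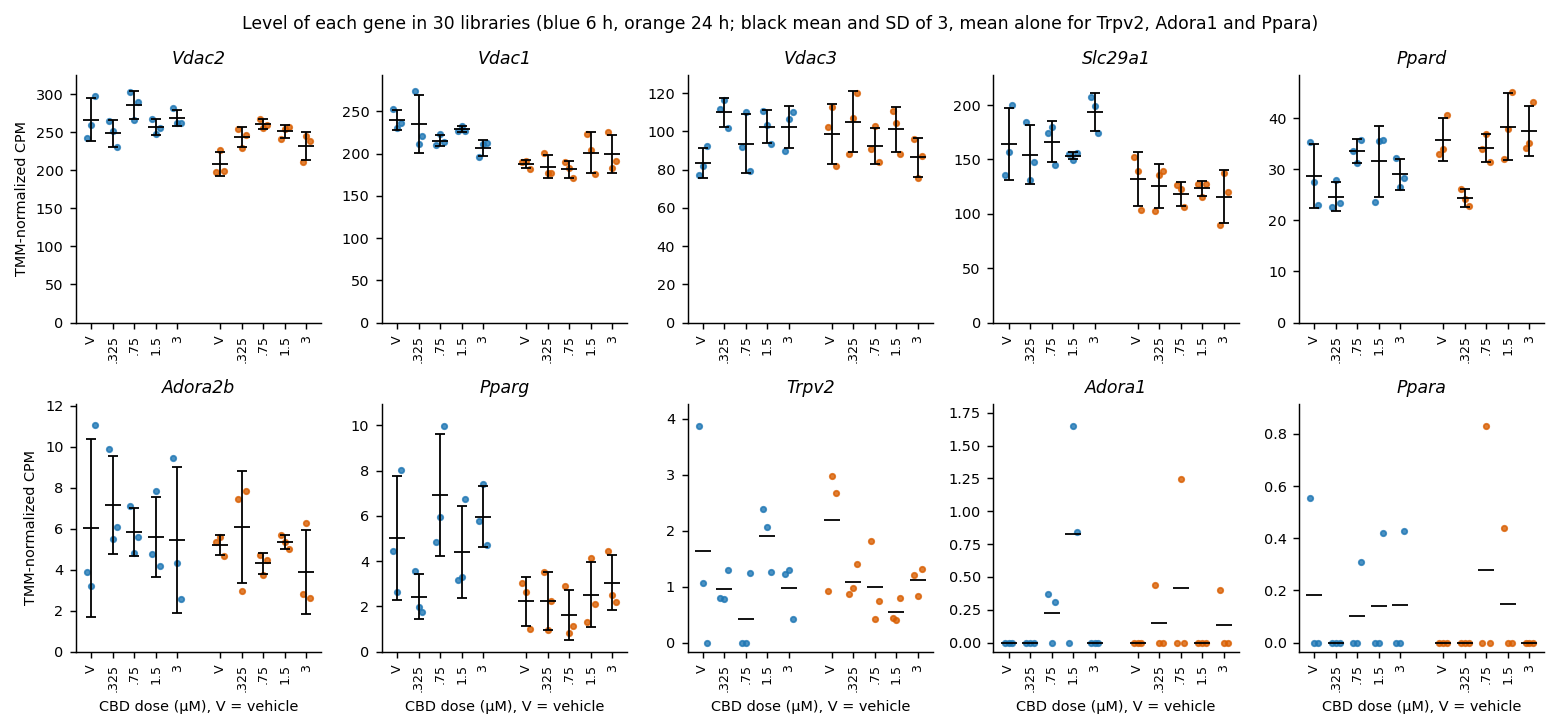
TMM-normalized CPM of each gene (vertical axis, from 0) in the 10 groups (horizontal axis, CBD dose in µM, V for vehicle), with 1 point per library, blue at 6 h and orange at 24 h, and black marks for the mean and SD of 3 libraries (mean alone for *Trpv2*, *Adora1* and *Ppara*). *Slc29a1* and *Pparg* lie lower at 24 h, and *Adora1* and *Ppara* are at 0 in most libraries. The 3 *Ppard* libraries of 0.325 µM at 24 h lie below the other 12 of that time (edgeR FDR = 0.380 against vehicle).

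In the quasi-likelihood test of edgeR, calls were made with Benjamini-Hochberg adjustment (FDR) over all genes that passed its filter on low counts and a threshold of 0.1. At 6 h this was 12012 genes with 7 of the 10 members, and at 24 h 12118 genes with 6 of them, as *Pparg* dropped below the filter. No member passed the threshold at any dose, over the mean of the 4 doses or for a difference among the doses, at either time. At an unadjusted p below 0.05 by edgeR there was 1 member at 0.325 µM and 1 over the mean of the doses at 6 h. Of all 12012 genes, 1057 and 1235 had such a p there. At 24 h there was 1 member each at 0.325, 0.75 and 1.5 µM, 1 over the mean and 1 among the doses. Of all 12118 genes, 1009, 924, 889, 815 and 1752 had such a p in the same order. DESeq2 also called 0 members in these comparisons, save for *Ppard* among the doses at 24 h. Over all genes tested at 6 h, from the lowest dose to the highest, the shares called were 0.2%, 0.0749%, 0.0999% and 0.05%, and 0.749% over the mean of the doses. Among the doses of 6 h the share was 0%, with 452 genes at an unadjusted p below 0.05 and 0 called by DESeq2. The shares at 24 h in the same order of doses were 0.066%, 0.0825%, 0.0413% and 0.00825%, with 0.107% over the mean and 1.93% among the doses. With shares this low, 0 of 6 or 7 members is close to the background.

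*Vdac2* (ENSMUSG00000021771, GRCm38 chr14:21825238-21845879, plus strand), the most abundant isoform in this line, was at 198, 226 and 200 CPM in the 3 vehicle libraries of 24 h. With CBD it was at 255, 229 and 246 CPM at 0.325 µM, then at 268, 255 and 259 with 0.75 µM, 242, 254 and 257 with 1.5 µM and 210, 245 and 239 with 3 µM. Of the 12 CBD libraries, 11 were above all 3 vehicle libraries and 1, at 3 µM, was within their range. The share of all genes with a partial split of this kind was not computed. From the lowest to the highest dose, the log2 fold changes against vehicle were 0.22, 0.31, 0.27 and 0.16, each ± 0.11 (SE). Over the mean of the doses it was 0.24 ± 0.087 (95% interval 0.063 to 0.42), with FDR = 0.603 by edgeR, and *Vdac2* ranked 194 among the genes tested at 24 h by this comparison. The value lay between 0.20 and 0.31 when any library was left out.

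At 6 h the log2 fold change of *Vdac2* over the mean of the doses was −0.015 ± 0.099, and 0.076 ± 0.11 without the third vehicle library. The vehicle libraries of 6 h were at 242, 260 and 297 CPM, and the CBD libraries ranged from 230 to 303 CPM with a median of 264. The change at 24 h minus the change at 6 h was 0.26 ± 0.12 on the log2 scale (edgeR FDR = 0.752), or 0.17 ± 0.13 without the third vehicle library of 6 h. Of all 12790 genes in the fit of 30 libraries, 0.235% passed the threshold for this difference, and 0 of the 7 members tested did. The gene *Comtd1* lies on the opposite strand and overlaps exons of *Vdac2*. It had 1618 reads against 21274 for *Vdac2*, and since the strand setting of the counting is not stated, reads in the overlap cannot be assigned with certainty.

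*Vdac3* (ENSMUSG00000008892, chr8:22577075-22593813, minus strand), the least abundant isoform, was at 76.9, 81.8 and 92.3 CPM in the vehicle libraries of 6 h. With CBD it was at 112, 117 and 102 CPM at 0.325 µM, then at 91.6, 110 and 79.0 with 0.75 µM, 111, 104 and 93.3 with 1.5 µM and 89.9, 106 and 110 with 3 µM. Of the 12 CBD libraries, 9 were above all vehicle libraries and the other 3 were within their range. The log2 fold change was 0.38 ± 0.15 at 0.325 µM (edgeR FDR = 0.455) and 0.27 ± 0.12 over the mean of the doses (FDR = 0.436), or 0.36 ± 0.15 without the third vehicle library (FDR = 0.266). At 24 h it was −0.050 ± 0.12, with vehicle libraries at 102, 113 and 81.7 CPM and CBD libraries from 75.6 to 120 CPM. A pseudogene, *Vdac3-ps1*, had 2 reads in all.

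*Vdac1* (ENSMUSG00000020402, chr11:52360860-52389397, plus strand) was at 253, 230 and 236 CPM in vehicle at 6 h and from 196 to 275 CPM with CBD, and 10 of the 12 CBD libraries were below all 3 vehicle libraries. Its log2 fold change over the mean of the doses was −0.12 ± 0.10 at 6 h (95% interval −0.32 to 0.088) and 0.024 ± 0.095 at 24 h (−0.17 to 0.22).

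*Slc29a1* (ENSMUSG00000023942, chr17:45585200-45599606, minus strand) spread widely within the vehicle group of 6 h, at 136, 157 and 200 CPM, of which the highest was the deepest library of the group. The 3 µM libraries were at 207, 199 and 174 CPM, and the other CBD libraries of 6 h ranged from 131 to 184 CPM. The log2 fold change was 0.23 ± 0.16 at 3 µM (edgeR FDR = 0.826) and 0.0073 ± 0.12 over the mean of the doses (95% interval −0.25 to 0.26). Without the third vehicle library these values of *Slc29a1* were 0.41 ± 0.16 (FDR = 0.271) and 0.19 ± 0.13. At 24 h vehicle was at 152, 139 and 104 CPM and CBD from 89.3 to 139 CPM, with a log2 fold change of −0.13 ± 0.12 over the mean (−0.38 to 0.11). An antisense gene that overlaps its exons, *Gm17080*, had 31 reads.

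*Adora2b* (ENSMUSG00000018500, chr11:62248984-62266453, plus strand) had 7, 6 and 40 reads in the vehicle libraries of 6 h, or 3.87, 3.19 and 11.1 CPM, so that 1 library carried most of the group. With CBD at 6 h it had 6 to 31 reads, or 2.56 to 9.89 CPM. Over the mean of the doses its log2 fold change was −0.11 ± 0.39 at 6 h (95% interval −0.92 to 0.71) and −0.11 ± 0.34 at 24 h (−0.81 to 0.58). Without the third vehicle library the value of *Adora2b* at 6 h turned to 0.77 ± 0.53 (FDR = 0.583). The wide intervals of *Adora2b* at both times included 0, so a change could not be told from 0 at this depth.

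*Adora1* (ENSMUSG00000042429, chr1:134199223-134235431, minus strand) had 8 reads in the 12 CBD libraries of 6 h, of which 6 were in 2 libraries of 1.5 µM, and 6 reads in those of 24 h. The level in the CBD libraries of 6 h was 0.253 CPM with an exact Poisson interval of 0.109 to 0.498 CPM. By the same interval the 0 reads in vehicle allow up to 0.503 CPM (0.409 CPM by the limit of 3 reads). By an exact two-sided permutation test of mean CPM, 12 CBD libraries against 3 of vehicle, p was 0.565 at 6 h and 0.710 at 24 h. A difference of *Adora1* between CBD and vehicle was not detectable at this depth.

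*Ppard* (ENSMUSG00000002250, chr17:28232700-28301474, plus strand) was the PPAR gene with most reads in all 30 libraries. At 24 h it was at 32.9, 34.0 and 40.5 CPM in vehicle and at 26.1, 24.3 and 22.7 CPM at 0.325 µM. With 0.75 µM it was at 34.0, 37.0 and 31.5 CPM, with 1.5 µM at 32.1, 37.9 and 45.1 CPM, and with 3 µM at 34.2, 35.1 and 43.2 CPM. The 3 libraries of the lowest dose were below the 12 others of 24 h, while the libraries of the higher doses overlapped with vehicle. The share of all genes with such a split was not computed, so it cannot be told whether the split is unusual. The log2 fold change at 0.325 µM was −0.56 ± 0.18 (95% interval −0.92 to −0.19), with FDR = 0.380 by edgeR, and the gene ranked 120 in this comparison. For a difference among the doses the FDR of *Ppard* was 0.127, and it passed the threshold with DESeq2 and without the second library of 3 µM. The 3 libraries of 0.325 µM at 24 h held 3506651 to 4420675 reads, which includes the highest total of the series. In a fit with the percentage of reads outside genes as covariate, the value for *Ppard* was −0.39 ± 0.32.

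At 6 h *Ppard* was at 35.4, 27.6 and 22.9 CPM in vehicle and at 22.6, 27.9 and 23.5 CPM at 0.325 µM. Its log2 fold change at this dose was −0.20 ± 0.22, and over the mean of the doses it was 0.061 ± 0.18 (95% interval −0.30 to 0.42). Without the third vehicle library these were −0.35 ± 0.24 and −0.093 ± 0.20. The other CBD libraries of 6 h ranged from 23.5 to 35.8 CPM, and every CBD group overlapped with vehicle.

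*Pparg* (ENSMUSG00000000440, chr6:115360951-115490399, plus strand) had 8, 5 and 29 reads in vehicle at 6 h, or 4.43, 2.65 and 8.01 CPM. In order of dose, the CBD groups of 6 h had 9, 5 and 4 reads, then 13, 16 and 32, then 8, 8 and 16, and 19, 17 and 11 at the highest dose. The 0.325 µM libraries were the lowest group at 1.74 to 3.56 CPM but overlapped with vehicle, and the log2 fold change was −1.11 ± 0.55 (edgeR FDR = 0.577). Over the mean of the doses it was −0.21 ± 0.39. Without the third vehicle library, which held 29 of the 42 vehicle reads, the value of *Pparg* was −0.53 ± 0.66 at 0.325 µM and turned to 0.37 ± 0.54 over the mean. At 24 h, where *Pparg* was below the filter, vehicle had 13, 8 and 3 reads and the CBD libraries 2 to 16, with p = 0.905 in the exact permutation test. *Ppara* (ENSMUSG00000022383, chr15:85734983-85802819, plus strand) had 1 read in vehicle at 6 h and 0 at 24 h, and 3 reads in the 12 CBD libraries of each time. For *Ppara* the exact permutation p was 0.637 at 6 h and 0.829 at 24 h.

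**Figure D2:**
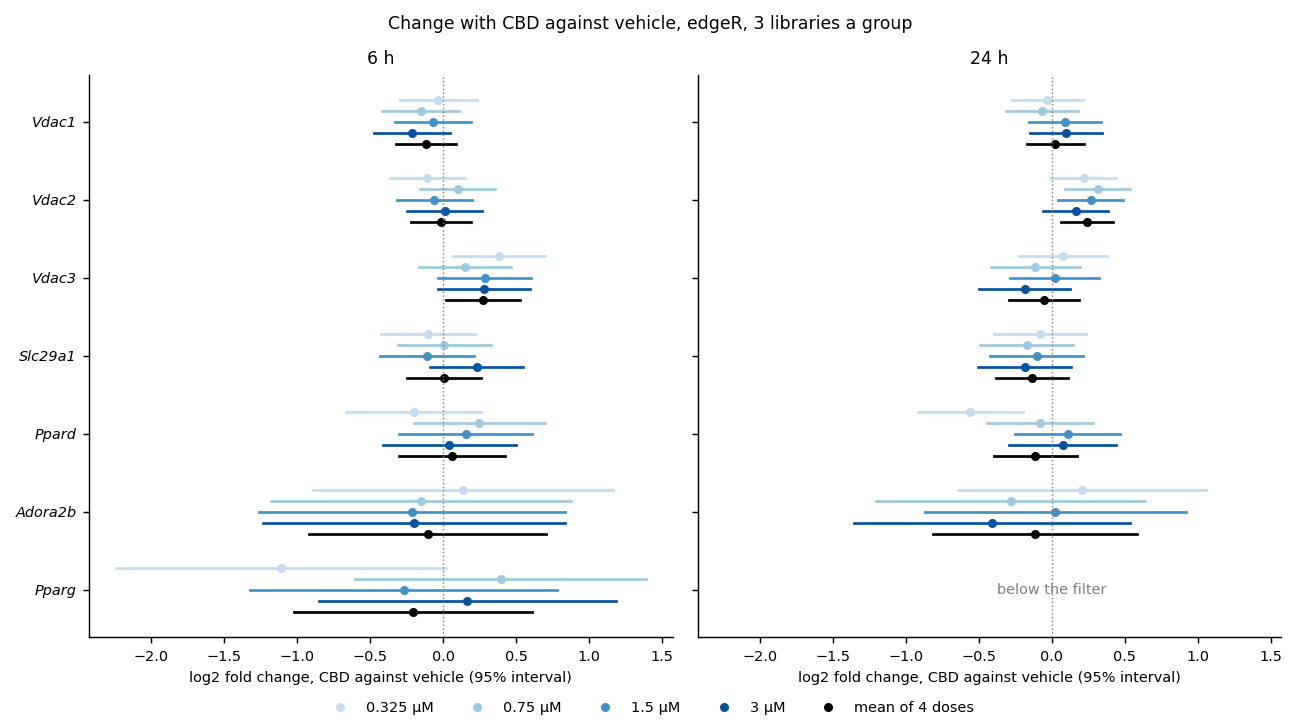
Log2 fold change of CBD against vehicle (horizontal axis) with its 95% interval from edgeR for the members tested (rows), at 6 h (left) and 24 h (right), in darker blue for higher doses and in black for the mean of the 4 doses. Intervals of the mean leave out 0 for *Vdac3* at 6 h (0.019 to 0.53) and *Vdac2* at 24 h (0.063 to 0.42), and no FDR is below 0.1.

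*Trpv2* (ENSMUSG00000018507, chr11:62574486-62600515, plus strand) did not pass the filter at either time. At 24 h it had 4, 9 and 8 reads in the vehicle libraries. In order of dose, the CBD groups had 4, 4 and 5 reads, then 5, 1 and 2, then 1, 1 and 3, and 3, 2 and 3 at the highest dose. In CPM, 7 of the 12 CBD libraries were below all 3 vehicle libraries, the other 5 were within the vehicle range, and none was above it. The pooled level was 2.07 CPM in vehicle (exact Poisson 95% interval 1.28 to 3.17) and 0.967 CPM with CBD (0.670 to 1.35). The difference of mean CPM, CBD minus vehicle, was −1.27, with p = 0.0132 in the exact two-sided permutation test of 12 against 3 libraries, where the smallest possible p is 0.0022. The difference was −1.90 CPM without the first vehicle library and −0.893 CPM without the second. This was 1 of 7 such tests on members below the filter. Of the 6233 genes below the filter with at least 10 reads over the 15 libraries of 24 h, 5.23% had an exact permutation p below 0.05, and adjusted over those genes the p of *Trpv2* was 0.768. At 6 h, where 6.06% of 6237 such genes had a p below 0.05, *Trpv2* had 7, 2 and 0 reads in vehicle and 0 to 6 with CBD, and its p was 0.415. The difference at 6 h was −0.567 CPM, and −1.37 CPM without the third vehicle library, which had 0 reads.

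No member had its 12 CBD libraries all above or all below the vehicle libraries of that time. Among all genes tested this was so for 1.46% at 6 h and 0.611% at 24 h. For the partial splits given above for *Vdac1*, *Vdac2*, *Vdac3* and *Trpv2*, the share over all genes was not computed. It therefore cannot be told whether they are unusual.

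The share of a gene in the reads of its family does not depend on the scaling of the library. Over the 15 libraries of 6 h, *Vdac2* made up a mean of 45.0% of VDAC reads (range 40.7 to 50.1%), *Vdac1* 38.3% (34.6 to 44.3%) and *Vdac3* 16.7% (13.4 to 20.1%). At 24 h the mean shares were 45.4%, 36.3% and 18.4% in the same order. *Ppard* made up 85.7 ± 5.71% of PPAR reads at 6 h and 93.3 ± 2.95% at 24 h, and *Pparg* nearly all of the rest, at 6.58 to 25.9% in the libraries of 6 h and 2.15 to 11.9% in those of 24 h.

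The *Vdac3* share at 6 h was 14.2 ± 0.671% in vehicle (n = 3) and 17.3 ± 1.83% with CBD (n = 12), by exact permutation p = 0.00879, and 11 of the 12 CBD libraries were above all vehicle libraries. The *Vdac1* share at 6 h was 40.7 ± 3.28% in vehicle and 37.6 ± 2.28% with CBD (exact permutation p = 0.0593, n = 3 and 12). At 24 h the *Vdac2* share was 42.1 ± 1.45% in vehicle and 46.2 ± 3.15% with CBD (exact permutation p = 0.0527, n = 3 and 12), with 10 of the 12 CBD libraries above all vehicle libraries. Without the third vehicle library of 6 h, the difference in share, CBD minus vehicle, was 3.46 percentage points for *Vdac3* and −4.62 for *Vdac1*, against 3.17 and −3.12 with it. The 3 p-values above were the lowest of 12, 6 shares at each of 2 times, all two-sided, and the other 9 were 0.178 or higher. As shares of a family sum to 100%, a higher share of 1 isoform lowers the others.

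**Figure D3:**
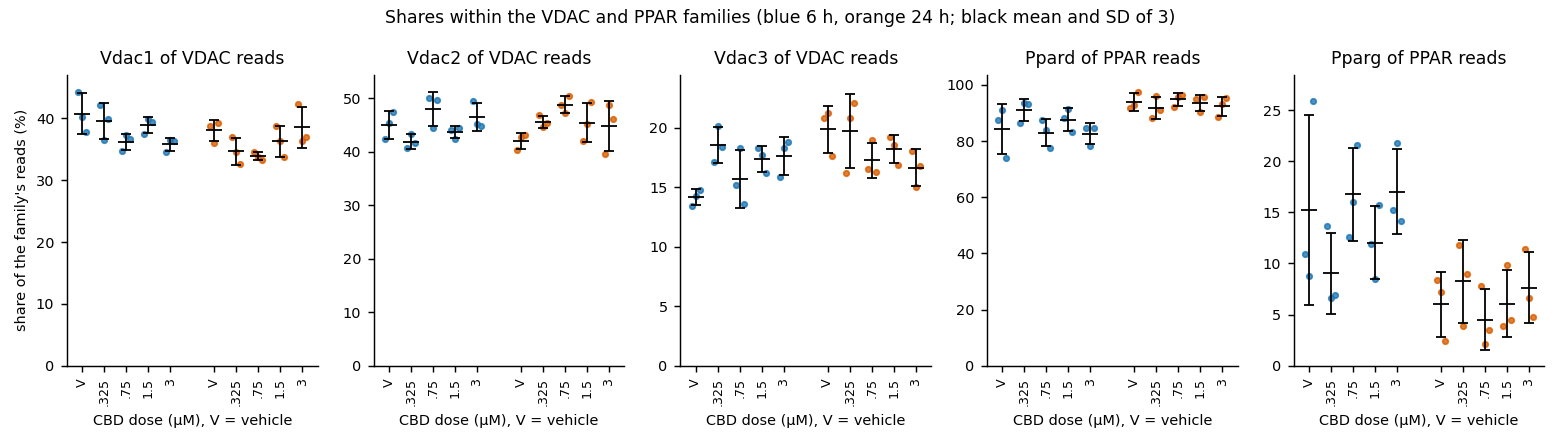
Share of each gene in the reads of its family in percent (vertical axis, from 0, a separate scale per panel) by CBD dose in µM (horizontal axis, V for vehicle), with 1 point per library, blue at 6 h and orange at 24 h, and black marks for mean and SD of 3. The *Vdac3* share is lowest in vehicle at 6 h (14.2%), and the *Pparg* share reaches 25.9% at 6 h and 11.9% at 24 h.

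Members passed the threshold between the times. The times were not only different lengths of treatment but separate collections, and these cannot be told apart, nor can less RNA per cell and fewer cells of a kind in bulk RNA. In vehicle alone (3 libraries against 3), *Vdac1* fell from 240 ± 12.2 to 188 ± 4.81 CPM, a log2 fold change of −0.35 ± 0.12 (edgeR FDR = 0.0302). *Vdac2* fell from 266 ± 28.1 to 208 ± 16.1 CPM, −0.36 ± 0.11 on the log2 scale (FDR = 0.0171). The vehicle libraries of 24 h were all below those of 6 h for both genes, a split whose share over all genes was not computed. Of the 12790 genes tested 26.7% passed the threshold here, 14.2% as lower at 24 h, and 2 of the 7 members tested did. Without the third vehicle library of 6 h *Vdac2* was at −0.26 with FDR = 0.150, and *Vdac1* was at −0.30 (FDR = 0.104) without the first one of 6 h and −0.32 (FDR = 0.1105) without the third one of 24 h. In vehicle with all libraries, *Slc29a1* (−0.32, edgeR FDR = 0.155), *Ppard* (0.34, FDR = 0.219) and *Pparg* (−1.20, FDR = 0.128) did not pass. Without the first vehicle library of 6 h, *Slc29a1* (−0.43) and *Ppard* (0.53) passed while *Vdac1* did not. *Pparg* (−1.48) passed without the second. Without the third, *Slc29a1* was at −0.13 (FDR = 0.6745), *Ppard* at 0.20 (FDR = 0.597) and *Pparg* at −0.61 (FDR = 0.604).

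Over all 5 groups of each time, a comparison chosen after these counts were seen, 5 of the 7 members tested passed the threshold, against 58.9% of all genes. In it 30.5% of genes were lower at 24 h, with 4 members among them, and 28.4% were higher, with 1 member. *Slc29a1* fell by 0.43 ± 0.072 on the log2 scale (edgeR FDR = 4.43e-06), from 166 ± 24.1 CPM over the 15 libraries of 6 h to a mean of 123 CPM. For this gene 10 of the 15 libraries of 24 h were below every library of 6 h, a count not made for all genes. *Pparg* fell by 1.02 ± 0.26 (FDR = 0.00120), from 4.95 ± 2.36 to 2.33 ± 1.14 CPM. *Vdac1* fell by 0.24 ± 0.053 (FDR = 0.000272) and *Vdac2* by 0.15 ± 0.049 (FDR = 0.00841, or 0.120 with no filter on low counts). *Ppard* rose by 0.20 ± 0.086 (FDR = 0.0480), from 29.5 ± 5.05 to 34.0 ± 6.38 CPM, and its FDR was 0.1025 with no filter on low counts and 0.155 when the percentage of reads outside genes was a covariate. *Vdac3* was at −0.023 ± 0.067 (95% interval −0.16 to 0.11) and *Adora2b* at −0.32 ± 0.21 (FDR = 0.217). Without the third vehicle library of 6 h, *Adora2b* was at −0.13 ± 0.21 (FDR = 0.644). The summed mesenchymal markers were at 12289 to 14583 CPM in the libraries of 6 h and 11186 to 12330 CPM in those of 24 h, with 10 of 10 passing the threshold, 5 in each direction. The neuronal markers were at 114 to 158 and 131 to 170 CPM, with 3 of the 6 tested passing. Their part in the members' change was not tested.

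**Figure D4:**
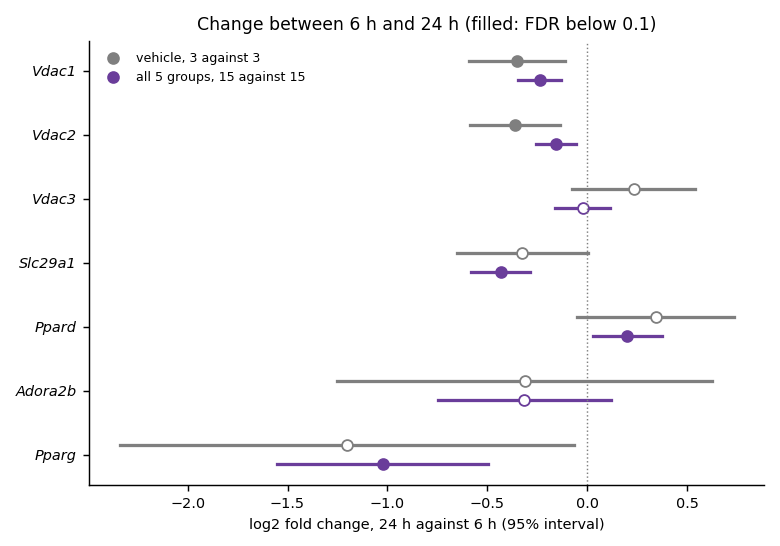
Log2 fold change of 24 h against 6 h (horizontal axis) with its 95% interval from edgeR for the 7 members tested (rows), in grey for the vehicle groups (3 libraries against 3) and in purple over all 5 groups (15 against 15), with filled points for an FDR below 0.1. *Slc29a1*, *Vdac1*, *Vdac2* and *Pparg* are lower and *Ppard* is higher at 24 h over all groups, while *Vdac3* is at −0.023.

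Among 20 partners of VDAC at the mitochondrial gate, 19 were tested and none passed the threshold with CBD over the mean of the doses at 6 h or 24 h by edgeR, with 3 and 0 at an unadjusted p below 0.05. Their most abundant members were *Slc25a4*, an ADP/ATP carrier, at 496 ± 60.5 CPM, *Tspo*, a protein of the outer membrane, at 337 ± 37.5 CPM and *Hspa9*, the mitochondrial Hsp70, at 293 ± 89.8 CPM. Between the times, over all 5 groups, 6 rose and 7 fell, where 28.4% of all genes rose and 30.5% fell, and the median log2 fold change was −0.112 over the 19 against −0.0108 over all genes. For this list and those that follow, counts between the times are to be read against this background of 58.9% called. Counts at an unadjusted p below 0.05 over the mean of the doses are to be read against 1235 of 12012 genes at 6 h and 815 of 12118 at 24 h. *Hspa9* fell by 0.78 ± 0.059 and *Slc25a4* rose by 0.19 ± 0.057.

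Of 25 other TRP channel genes, 6 had no read in any library, among them *Trpv1*, the capsaicin receptor, and *Trpm8*, the menthol receptor, which allows up to 0.0356 CPM. *Pkd2* at 77.9 ± 15.3 CPM, *Trpm7* at 61.6 ± 6.87 CPM and *Mcoln1*, a lysosomal channel, at 14.2 ± 4.32 CPM led the list, all above *Trpv2*. None of the 5 tested at each time passed with CBD, with 1 unadjusted p below 0.05 at 6 h and 0 at 24 h over the mean of the doses. Between the times 4 of 6 rose and 1 fell, against 58.9% of all genes called, with a median of 0.397.

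In adenosine handling and nucleoside transport (19 genes), *Adk*, the kinase that clears adenosine, led at 113 ± 20.6 CPM, followed by the transporter gene *Slc29a3* at 32.1 ± 9.25 CPM and *Ada*, the deaminase, at 29.9 ± 6.09 CPM. The concentrative transporter genes *Slc28a1* and *Slc28a2* had no read. None of the 11 tested passed with CBD at either time, with 1 unadjusted p below 0.05 at each over the mean of the doses. Between the times 7 of 11 rose and 2 fell, against 28.4% and 30.5% of all genes (median 0.330), and *Adk* (0.41 ± 0.064) and *Slc29a3* (0.50 ± 0.11) rose while *Slc29a1* fell.

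Among 16 partners and coregulators of PPAR, *Ncor1*, a corepressor, was at 328 ± 29.7 CPM, *Crebbp*, an acetyltransferase, at 259 ± 38.0 CPM and *Med1*, a Mediator subunit, at 148 ± 24.0 CPM. None of the 15 tested passed with CBD, with 0 unadjusted p-values below 0.05 at 6 h and 2 at 24 h over the mean. Between the times 6 of 15 rose and 3 fell, a share called close to the 58.9% of all genes (median 0.102), and *Rxra*, the partner of PPAR on DNA, which was named after its value was seen, rose by 0.69 ± 0.064.

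Of 29 genes known as PPAR targets, *Plin2*, which encodes a coat protein of lipid droplets, fell with CBD at 6 h. It was the only one of the 18 tested that passed over the mean of the doses, where 0.749% of all genes passed. It was at 148 ± 35.1 CPM in vehicle (n = 3), and the group means with CBD, from the lowest dose to the highest, were 93.0, 100, 85.4 and 78.6 CPM. Against vehicle its log2 fold change was −0.90 ± 0.18 at 3 µM (edgeR FDR = 0.0875, not below 0.1 with the 6 libraries of these groups alone or in 11 of the 15 fits without a library) and −0.72 ± 0.14 over the mean of the doses (FDR = 0.0140). Over the mean it was −0.61 without the first and −0.62 without the second vehicle library of 6 h, and it was no longer called in both cases. Without the third it was −0.92 ± 0.14 over the mean (FDR = 0.000227) and −1.10 ± 0.17 at 3 µM (FDR = 0.00115). At 24 h, *Plin2* was at 99.7 ± 14.1 CPM in vehicle and at group means of 87.6 to 108 CPM with CBD. The more abundant targets *Hadha* and *Scd1*, enzymes of fatty acid oxidation and desaturation, did not pass. Over the mean of the doses at 6 h, 5 of the 18 tested had an unadjusted p below 0.05, against 1235 of 12012 over all genes. At 24 h 0 of the 19 tested passed over the mean of the doses (0 at an unadjusted p below 0.05, against 815 of 12118 over all genes). *Txnip* differed among the doses at 24 h (FDR = 0.0595), with 37.6 ± 8.32 CPM at 3 µM against 83.2 ± 21.2 CPM at 0.325 µM, and its FDR was 0.581 with the percentage of reads outside genes as covariate and 0.210 in a fit of all 30 libraries. This call of *Txnip* was also lost in 7 of the 15 fits without a library, with an FDR of up to 0.267. The median log2 fold change of the targets over the mean of the doses was 0.081 at 6 h and 0.0259 at 24 h, against −0.0188 and −0.00637 over all genes.

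Of 27 other receptors and channels proposed for CBD, 10 had no read in any library, including *Gpr55*, the serotonin receptor genes *Htr1a* and *Htr3a* and the dopamine receptor gene *Drd2*. The highest were *Cacna1g*, a T-type calcium channel, at 7.32 ± 2.26 CPM, *Scn2a*, a sodium channel, at 3.54 ± 1.59 CPM and *Faah*, the hydrolase of anandamide, at 3.24 ± 1.98 CPM. Of the 2 tested at 6 h and 3 at 24 h none passed with CBD, with 0 unadjusted p-values below 0.05 over the mean.

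For the 6 members that passed the filter at both times, the genes with the highest Pearson r of log2 CPM over the 30 libraries were listed. These r include the difference between the times, and libraries share depth and normalization, so they are given as a description. For *Slc29a1* they included *Tinagl1* (r = 0.900) and *Nol10* (0.881). For *Vdac1* they were *Psmd6* (0.840), *Gm14053* (0.822) and *Rpl39l* (0.819), and for *Vdac2* *Timm9* (0.747), *Hspa4* (0.741) and *D030056L22Rik* (0.729). For *Ppard* they were *Reep5* (0.782), *Ociad1* (0.773) and *Txndc15* (0.768), for *Adora2b* *Atp23* (0.733), *Pycrl* (0.637) and *Eif4a1* (0.633), and for *Vdac3* *Med15* (0.618), *Mif* (0.613) and *Tcirg1* (0.580). Among the members themselves r ranged from −0.470 for *Vdac3* and *Ppard* to 0.543 for *Slc29a1* and *Vdac2*.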

How the data were processed

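The deposited tables hold the read counts that the authors made per Ensembl gene for each of 30 libraries, without normalization. Per the study's methods, reads were trimmed with Flexbar, mapped to GRCm39 with STAR 2.7.5c and counted with HTSeq 1.99.2. The strand setting is not given in the sources used here, and reads with several alignments were not counted on a gene. Reads outside genes (17.7% to 22.2% of uniquely mapped reads) were left out of library totals and tests.

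The tests used edgeR 4.0.16 under R 4.3.3 (filterByExpr, TMM, quasi-likelihood F-test, Benjamini-Hochberg, threshold 0.1), in a fit of 15 libraries per time and a fit of all 30 for the comparisons between times. Log2 CPM for correlations used a prior count of 2. SE is the log2 fold change over the square root of F. Members below the filter and shares within families were compared by exact permutation over libraries, with Python 3.11.15. The alternatives were RLE normalization, DESeq2 1.42.0, no filter, at least 10 reads in every library, the percentage of reads outside genes as covariate, other sets of libraries and each library left out in turn. The permutation test over all genes below the filter and the comparison of times over all groups were added after the data were seen. The fit was tested on simulated data.

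Named are the 10 members. Of the other lists, genes past the threshold with CBD or else the 3 with the highest level are named, and for each member passing the filter the 3 most similar genes, of which 1 is not reported here. Members and lists were chosen with earlier results of these data known. Symbols and positions came from GENCODE M21 and RefSeq on GRCm38, whereas the counts were made on GRCm39. Intervals and limits of single counts cover counting error only.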

Additional observations from a re-analysis of the deposited data

How the results depend on the processing

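No paired analysis was possible because no replicate number in the labels links libraries of different groups. With CBD, the count of members past the threshold was 0 in every comparison of CBD with vehicle and in the difference between times, under every alternative run. For a difference among the doses at 24 h it was 1 (*Ppard*) with DESeq2 and 0 to 1 with a library left out (1 without the second library of 3 µM). For 24 h against 6 h in vehicle, the count of 2 became 0 with no filter on low counts and 0 in a fit of those 6 libraries alone, and ran from 1 to 3 with a library left out. Over all 5 groups it was 5, and 3 with no filter (without *Vdac2* and *Ppard*). The cause was not tested. Adjusted over the 7 tests on members below the filter alone, which is not independent support, *Trpv2* at 24 h was the 1 member under 0.1, and the count was 0 to 1 with a library left out (0 in 9 cases). Of the 12 shares 0 passed in the same way, and 0 to 2 with a library left out. None of the fold changes of members and of *Plin2* that passed the threshold changed sign. The number of genes called depended strongly on the setting: 90 over the mean of the doses at 6 h became 66 to 329 under alternatives, and 304 without the third vehicle library of 6 h, and 234 among the doses at 24 h became 1 with the covariate and 783 with no filter. Over the mean of the doses at 24 h 13 became 0 to 46. With 3 libraries a group, a change could not be told from 0 where the interval given includes 0. The intervals are not adjusted for the number of genes. *Ppard* at 0.325 µM and 24 h had an interval of −0.92 to −0.19 and was not called (edgeR FDR = 0.380). The smallest change that would be called was not computed.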
